A study of Sus scrofa with 30 samples.

Results

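Small RNA of the porcine endometrium on day 20 of pregnancy (PD20) was compared with that on day 12 of pregnancy (PD12). All libraries labelled with these days were used, 6 for PD20 and 5 for PD12, which are 11 of the 30 libraries of the study. The study sequenced endometrium of pregnant and cyclic pigs on days 12, 16 and 20. All animals were Hampshire x Duroc crossbred gilts, 7 to 8 months of age and from a single commercial herd, those of the pregnant groups had been inseminated, and no drug or genetic change was applied. Day 16 of pregnancy (PD16, n = 5) and days 12 and 20 of the estrous cycle (CD12, n = 4, and CD20, n = 5) were used beside them. On PD12 and PD16 the uterine horns had been flushed to remove the conceptuses. On PD20 the trophoblast and embryos were dissected away and tissue was taken at implantation sites, so that the day of pregnancy and the way of collection cannot be told apart. Libraries had been mixed into sequencing pools, and pool membership was not used here. In whole tissue, fewer cells of a type and less RNA per cell cannot be told apart.

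Reads were counted on the 873 sequences of the study's annotated list by exact match, and these counts were also summed over 231 miRNA arms and over 258 seeds. The study had listed only sequences that reached a read threshold in most libraries of any of its groups. A rare sequence could thus enter through the group where it was high. The 11 libraries held between 2268604 (PD20 replicate 2) and 5638581 reads (PD20 replicate 1), of which 75.3% to 81.8% lay on the annotated sequences. Levels are read counts scaled to the TMM-adjusted library size (CPM) and are given as mean ± SD. In a library, 3 reads corresponded to between 0.903 and 1.74 CPM, which limits what can be seen of rare sequences. Reads carried no molecular identifiers, so limits from read numbers cover counting error only.

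A miRNA is cut from a hairpin precursor as a short duplex, and one strand guides Argonaute proteins to messenger RNAs. Pairing rests mostly on its seed, bases 2 to 8 from the 5' end. An isomiR is a read of the same miRNA arm whose ends differ from the reference sequence, called canonical, with DEL for bases lost and ADD for bases gained. A change at the 3' end leaves the seed as it is, whereas a change at the 5' end moves it. Shorter 3' ends can arise in imprecise cutting or in trimming by exonucleases, and longer ones in imprecise cutting or tailing. Between these days the porcine conceptus elongates, attaches to the luminal epithelium and begins to implant, while the endometrium is remodelled.

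The sequences that carry the comparison are given 5' to 3' in DNA letters as in the study's list, with the seed in capitals. The first group holds called sequences whose whole arm was called too, canonical miR-205, and single forms that have no canonical partner in the comparison.
miR-302, 22 nt: tAAACGTGgatgtacttgcttt
miR-29a, 22 nt: tAGCACCAtctgaaatcggtta
miR-92b-3p: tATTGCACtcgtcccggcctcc
let-7i, other arm, 22 nt: cTGCGCAAgctactgccttgct
miR-205: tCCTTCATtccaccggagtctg
miR-381, 20 nt: aTATACAAggacaagctctc
ENSSSCG00000026388, 19 nt: gGGGATGTagctcagtggt

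The miR-30 family gave 5 called sequences, set here under their canonical forms so that the changed end can be seen. miR-30a-5p and miR-30c-5p share the seed GTAAACA, and forms of miR-30a-3p, from the other strand of the miR-30a precursor, carry TTTCAGT or, with a base lost at the 5' end, TTCAGTC.
miR-30a-5p, canonical: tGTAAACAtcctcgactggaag
miR-30a-5p, 3' DEL 4 nt: tGTAAACAtcctcgactg
miR-30c-5p, canonical: tGTAAACAtcctacactctcagc
miR-30c-5p, 3' DEL 1 nt: tGTAAACAtcctacactctcag
miR-30a-3p, canonical: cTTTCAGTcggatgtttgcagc
miR-30a-3p, 3' DEL 1 nt: cTTTCAGTcggatgtttgcag
miR-30a-3p, 3' ADD 1 nt: cTTTCAGTcggatgtttgcagcc
miR-30a-3p, 5' DEL 1 nt and 3' DEL 1 nt: tTTCAGTCggatgtttgcag

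Further isomiRs with a called shortened form are given. Not printed are the called shortened forms of miR-126-3p, which was higher, and of miR-504, which was lower. miR-23a and miR-23b share the seed TCACATT, and the loss of bases at the 5' end of miR-148b-3p replaces the seed CAGTGCA by GTGCATC.
miR-23a, canonical: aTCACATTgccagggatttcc
miR-23a, 3' DEL 1 nt: aTCACATTgccagggatttc
miR-23b, canonical: aTCACATTgccagggattacca
miR-23b, 3' DEL 2 nt: aTCACATTgccagggattac
miR-148b-3p, canonical: tCAGTGCAtcacagaactttgt
miR-148b-3p, 3' DEL 1 nt: tCAGTGCAtcacagaactttg
miR-148b-3p, 5' DEL 2 nt and 3' DEL 1 nt: aGTGCATCacagaactttg
miR-532-5p, canonical: cATGCCTTgagtgtaggaccgt
miR-532-5p, 3' DEL 3 nt: cATGCCTTgagtgtaggac
miR-10b, canonical: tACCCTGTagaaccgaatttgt
miR-10b, 3' DEL 1 nt: tACCCTGTagaaccgaatttg
let-7a, canonical: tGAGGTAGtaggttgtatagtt
let-7a, 3' DEL 2 nt: tGAGGTAGtaggttgtatag

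On PD20, 25 of the 873 sequences (2.86%) were called, 19 (2.18%) higher and 6 (0.687%) lower than on PD12. A call required a false discovery rate (adjusted p) below 0.05 in the quasi-likelihood F-test of edgeR and a log2 fold change (log2FC) beyond 1 in either direction. Among the higher ones were miR-302, which had the largest log2FC, and many isomiRs with a shortened 3' end, and the lower ones included miR-205 and miR-92b-3p. Over all 873 sequences the median log2FC was -0.01, 180 (20.6%) had an unadjusted p under 0.05, and 27 (3.09%) had an adjusted p under 0.05 at any fold. The groups did not overlap for 11 of the 19 higher and 3 of the 6 lower sequences. Over all sequences, 20 (2.29%) did not overlap with PD20 higher and 14 (1.6%) with PD20 lower. Most calls lay close to the threshold, as 22 of the 25 had an adjusted p over 0.04, and 12 of the higher and 5 of the lower sequences stayed under 100 CPM in mean on both days.

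These calls depended on single libraries. Without PD12 replicate 2, PD12 replicate 5, PD16 replicate 3, PD20 replicate 3 or PD20 replicate 5 the F-test called 0 sequences, with 144 to 175 at an unadjusted p under 0.05. Without PD12 replicate 1, PD12 replicate 4 or PD20 replicate 2 it called 6, without PD20 replicate 4 it called 8, and without PD16 replicate 2, PD16 replicate 5 or PD20 replicate 6 it called 11, 13 and 15. Fitted on the 11 libraries without PD16 it also called 0, with 176 at an unadjusted p under 0.05, while on the full set DESeq2 called 55 and the likelihood ratio test of edgeR 47, each with all 25 among them. With a replicate block it called 8. None of the 25 changed sign in any of these fits.

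**Figure D1:**
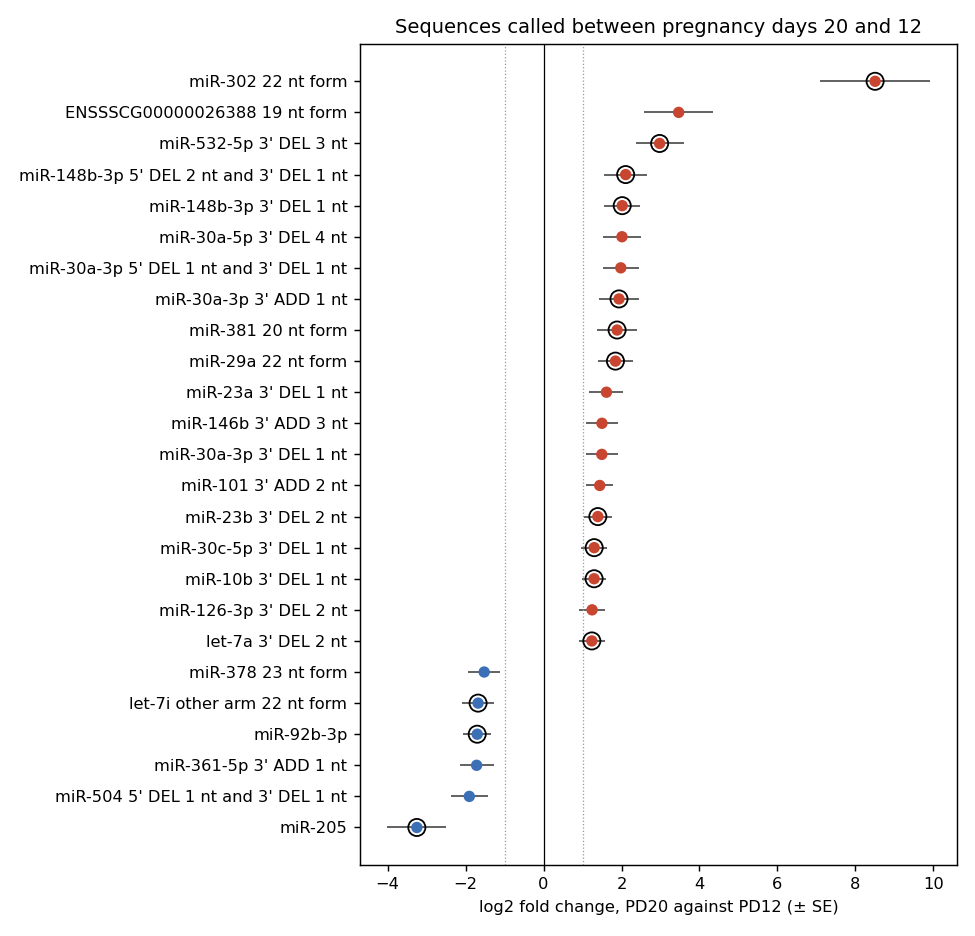
Log2 fold change of the 25 called sequences, PD20 against PD12, with bars of 1 SE from the quasi-likelihood fit. Red points are the 19 higher and blue points the 6 lower sequences, a ring marks those whose groups do not overlap, and dotted lines mark a log2FC of -1 and 1. By fitted value miR-302 stands apart at 8.504 and miR-205 is lowest at -3.25, and both values depend on the prior count.

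Some libraries stood apart from their group. The profile of PD12 replicate 3 correlated better with the PD20 libraries (median Pearson r of log2 levels across sequences 0.940) than with the other PD12 libraries (0.923). PD20 replicate 4 also correlated slightly better with PD12 (0.930) than with its own group (0.928). PD20 replicate 1 was the deepest library and had the lowest TMM factor of the 11, 0.593. Sequences of miR-143 and miR-145 summed to 691401 CPM in this library, against 74385 to 140201 CPM in the other PD20 libraries. Without PD12 replicate 3 the number of called sequences was 30, and without PD20 replicate 1 it was 24, of which 19 and 18 were among the 25.

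At the level of whole miRNA arms, 4 of 231 were called (1.73%). miR-302 and miR-29a were higher (0.866% of the arms) and miR-92b-3p and the other arm of let-7i were lower (0.866%). The arm of miR-302 and the other arm of let-7i hold 1 sequence each. The median log2FC of the 231 arms was -0.08, and 49 (21.2%) had an unadjusted p under 0.05. No overlap was seen for 3 arms with PD20 higher (1.3%) and for 4 with PD20 lower (1.73%). Of the 258 seeds 1 was called (0.388%), the seed AAACGTG of miR-302, which a single annotated sequence carries. Seeds without overlap numbered 4 with PD20 higher (1.55%) and 3 with PD20 lower (1.16%).

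For most called sequences the whole arm was not called. The arm of miR-30a-3p, for example, had 565 ± 445 vs. 1112 ± 457 CPM (log2FC 0.98, SE 0.47, adjusted p = 0.234). The arm of miR-148b-3p had a log2FC of 0.82 (SE 0.50, adjusted p = 0.351), and that of miR-10b one of -0.06 (SE 0.45, adjusted p = 0.942). Without PD12 replicate 5 no arm was called (43 at an unadjusted p under 0.05), 1 was called without PD12 replicate 2, PD20 replicate 3 or PD20 replicate 5, 2 without PD16 replicate 2 or PD20 replicate 1, and 7 without PD16 replicate 1. DESeq2 called 16 arms and the likelihood ratio test 17. The seed of miR-302 lost its call without PD12 replicate 2, 4 or 5 or PD20 replicate 5 or 6.

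miR-302 belongs to a cluster known from pluripotent stem cells and the early embryo. Its best known seed there, AAGTGCT, lies on the 3' strand of its hairpins, whereas the sequence here carries AAACGTG and no sequence among the 873 carried AAGTGCT. Its 22 nt form had no read in any PD12 or PD16 library. In the PD20 libraries it had 7, 4, 11, 117, 48 and 121 reads, which were 2.65, 2.32, 4.64, 39.1, 16.98 and 40.1 CPM. Replicates 4, 5 and 6 were the high ones, and the groups did not overlap. The study listed only sequences with at least 10 reads in at least 4 libraries of a group (fewer for CD12). By its reads miR-302 met this through PD20 alone, so the list favoured a higher level on PD20. The mean of 17.6 ± 17.9 CPM was at least 16.5-fold higher than on PD12, computed against 3 reads in each PD12 library, and the fitted log2FC of 8.504 (SE 1.42, adjusted p = 0.0311) depends on the prior count. The arm of miR-302 holds this 1 sequence alone, so the calls of arm and sequence rest on the same reads. The call of the whole arm remained under 10 of 10 alternatives and in 15 of the 16 fits that left out a library, being lost without PD12 replicate 5 (adjusted p = 0.0549). The call of the sequence remained under 9 of 10 alternatives and in 11 of 16 such fits, and was lost without PD12 replicate 2, PD12 replicate 5, PD16 replicate 3, PD20 replicate 3 or PD20 replicate 5.

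In the cycle the same sequence had 2 reads in CD20 replicate 1, 1 read in CD20 replicate 5 and none in the other cyclic libraries. A 21 nt form outside the annotated list had 0 reads on PD12, at most 1 read in a PD16 library and up to 27 reads on PD20. Of the 9 names on a list of embryonic stem cell miRNAs, which held miR-302, miR-302a to d, miR-367, miR-371, miR-372 and miR-373, only miR-302 was matched by name among the 873. This sequence was listed under gene identifiers and took its name, which has no letter, from the list of RT-PCR assays. Whether it belongs to 1 of miR-302a to d could therefore not be told by name.

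miR-29 family members repress collagens and other matrix genes. The miR-29a arm had 24.3, 19.3, 38.0, 31.8 and 32.6 CPM in the PD12 libraries, and on PD20 a lowest value of 44.7, a median of 70.2 and a highest of 143 CPM. All 6 PD20 libraries lay above all 5 PD12 libraries, with PD20 replicate 4 the highest. The arm differed by 29.2 ± 7.37 vs. 77.8 ± 33.96 CPM (log2FC 1.41, SE 0.34, adjusted p = 0.0336). Its call was lost without PD12 replicate 1, 2, 4 or 5 and without PD20 replicate 3, 4 or 5, and remained under 6 of 11 alternatives.

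All 4 annotated sequences of miR-29a were higher at an unadjusted p under 0.05 (11.2% over all sequences). Their median log2FC was 1.495 against -0.01 over all sequences. A 22 nt form was called, at 5.61 ± 2.90 vs. 20.3 ± 10.1 CPM (log2FC 1.84, SE 0.44, adjusted p = 0.0417). Its PD12 libraries held 3.63, 2.73, 5.77, 5.70 and 10.2 CPM, and on PD20 it had a lowest value of 10.2, a median of 18.8 and a highest of 39.4 CPM. The highest PD12 library and the lowest PD20 library met without overlapping. miR-29b and miR-29c had no sequence among the 873.

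miR-205 is known from epithelia, where it represses the mesenchymal factors ZEB1 and ZEB2 together with the miR-200 family. Canonical miR-205 was rare, with 33, 6, 8, 5 and 11 reads on PD12, or 9.995, 2.05, 3.85, 1.78 and 3.31 CPM. On PD20 it had 1, 3, 0, 0, 0 and 2 reads, or at most 1.74 CPM. PD12 replicate 1 was high and 3 of the 6 PD20 libraries had no read, and the groups did not overlap, with the lowest PD12 library at 1.78 CPM. The difference of 4.20 ± 3.354 vs. 0.463 ± 0.681 CPM gave a fitted log2FC -3.25, SE 0.76, adjusted p = 0.0417, which at these read numbers depends on the prior count. Computed against 3 reads in each PD20 library, the PD12 mean was at least 3.50-fold higher. The call was lost without PD12 replicate 1, 2 or 5, PD16 replicate 3, or PD20 replicate 3, 4 or 5.

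Beside canonical miR-205, its form with 1 nt added had 13.4 vs. 4.21 CPM (log2FC -1.70, SE 0.60, adjusted p = 0.124), and that with 1 nt lost 3.75 vs. 1.21 CPM (log2FC -1.63, SE 0.73, adjusted p = 0.224). Neither passed, nor did the arm (log2FC -1.84, SE 0.55, adjusted p = 0.0752). The epithelial miR-200 family summed to 10537 ± 2334 vs. 10326 ± 2125 CPM, and none of its 31 sequences was called by the F-test of edgeR (2.86% over all sequences), with 2 higher and 2 lower at an unadjusted p under 0.05 (11.2% and 9.39% over all sequences) and a median log2FC of -0.30. miR-205 and miR-203 together had 16 sequences, of which 15 had a log2FC under 0 (median -0.66), while 49.3% of all sequences had one above 0. Of these 16, 1 was called lower (0.687% over all sequences). At an unadjusted p under 0.05, 0 were higher and 3 lower (11.2% and 9.39% over all sequences).

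miR-92b-3p shares its seed with miR-25, miR-32 and the other miR-92 forms. Its canonical sequence had 68.8, 108, 183, 72.6 and 106 CPM on PD12, and on PD20 a lowest value of 15.2, a median of 29.7 and a highest of 56.0 CPM. All PD20 libraries lay below all PD12 libraries. The level was 108 ± 45.8 vs. 33.1 ± 13.7 CPM (log2FC -1.70, SE 0.35, adjusted p = 0.0311), and the call remained under 9 of 11 alternatives. It was lost without PD12 replicate 2 or 5, PD16 replicate 3, or PD20 replicate 3 or 5. The arm was called as well (log2FC -1.19, SE 0.30, adjusted p = 0.0450), and that call remained under 6 of 11 alternatives, being lost with RLE factors, at a mean of at least 10 CPM, with PD12 and PD20 alone, in the joint test with PD16 and with the title numbers as a block, with a smallest log2FC of -0.93 over all fits. It remained in the fits without PD12 replicate 1, PD12 replicate 4, PD16 replicate 1, PD16 replicate 4 or PD20 replicate 6 and was lost without any other library. The form shortened by 2 nt had 11.8 vs. 16.98 CPM (log2FC 0.52, SE 0.37, adjusted p = 0.475).

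The other arm of let-7i, from the strand opposite the let-7 sequence, had 21.8, 10.9, 6.73, 8.19 and 17.5 CPM on PD12, and on PD20 a lowest value of 2.11, a median of 4.47 and a highest of 5.64 CPM. All PD20 libraries were lower than all PD12 libraries (log2FC -1.68, SE 0.41, adjusted p = 0.0424). This call was lost without PD12 replicate 1, 2, 4 or 5, PD16 replicate 3, or PD20 replicate 2, 3, 4 or 5, and remained under 5 of 10 alternatives. The arm holds this 1 sequence alone. Its call remained under 8 of 10 alternatives and rests on the same reads, adjusted over fewer tests. The let-7 family as a whole, which promotes differentiation and whose processing is blocked by LIN28, summed to 134542 ± 12029 vs. 136624 ± 14931 CPM, with 1 of 62 sequences called higher and 1 lower (2.18% and 0.687% over all sequences) and a median log2FC of 0.13.

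**Figure D2:**
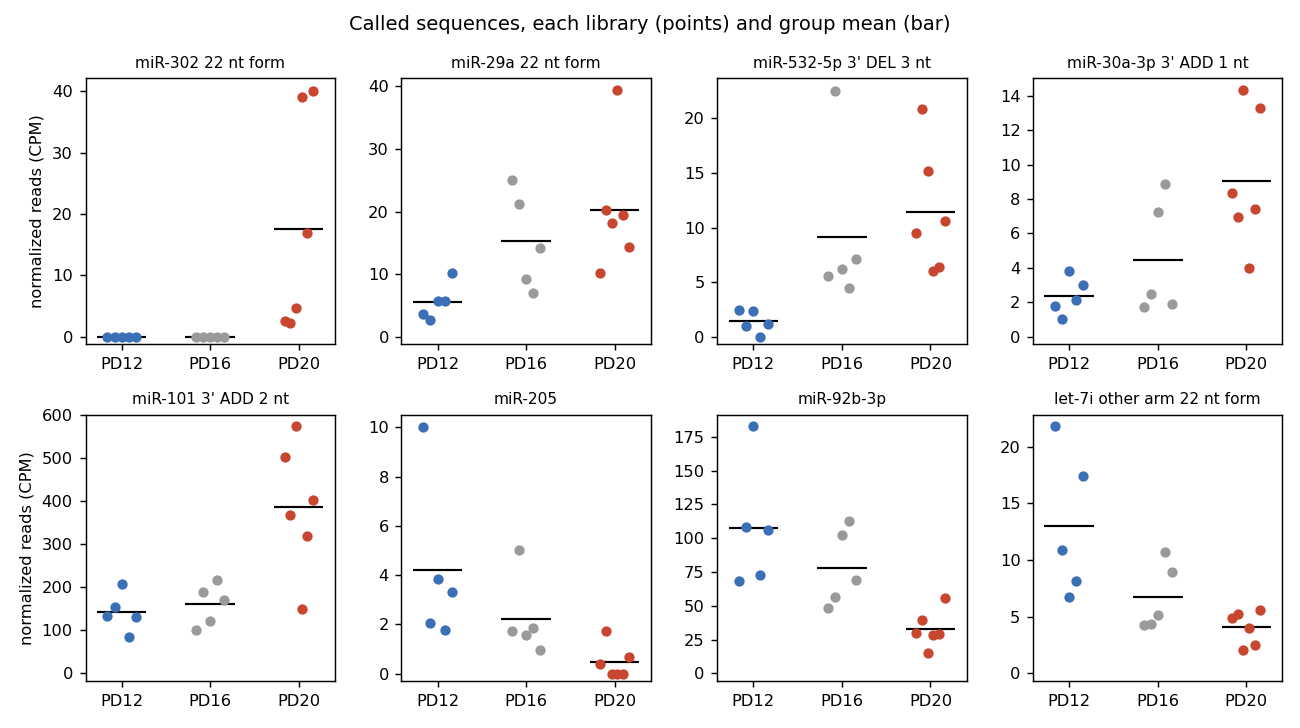
Normalized reads (CPM, linear axis) of 8 called sequences in each library of PD12 (blue, n = 5), PD16 (grey, n = 5) and PD20 (red, n = 6), with the group mean as a bar. miR-302 is at 0 in all PD12 and PD16 libraries, while miR-205, miR-92b-3p and the other arm of let-7i are lower in all PD20 libraries than in all PD12 libraries, and miR-101 with 2 nt added overlaps through PD20 replicate 4.

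Among the lower sequences without a called arm were forms of 3 intronic miRNAs. miR-504 with 1 nt lost at each end had 8.51 ± 5.01 vs. 2.21 ± 0.808 CPM (log2FC -1.90, SE 0.48, adjusted p = 0.0485), and canonical miR-504 had a log2FC of -1.78 that did not pass (SE 0.49, adjusted p = 0.0540). miR-361-5p with 1 nt added had 17.997 ± 6.77 vs. 5.37 ± 3.50 CPM (log2FC -1.72, SE 0.43, adjusted p = 0.0485). The 23 nt form of miR-378, whose gene lies in that of the coactivator PPARGC1B, had 26.6 ± 20.5 vs. 9.22 ± 2.74 CPM (log2FC -1.52, SE 0.41, adjusted p = 0.0497), with PD12 replicate 1 at 61.2 CPM. The groups overlapped for each of them.

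The miR-30 family gave the largest number of calls. Of its 53 sequences, 5 were called higher and none lower, 15 were higher and 2 lower at an unadjusted p under 0.05, and the median log2FC was 0.43. Over all 873 sequences 2.18% were called higher, 98 (11.2%) were higher and 82 (9.39%) lower at an unadjusted p under 0.05, and the median was -0.01. The family summed to 26508, 41630.0, 42211, 36034 and 35150.4 CPM on PD12, and on PD20 to between 35928 and 56762 CPM with a median of 49279. PD20 replicate 2 was the one library within the range of PD12. Its most abundant sequence, miR-30a-5p with 2 nt added, had 14096 ± 3007 vs. 20532 ± 7421 CPM (log2FC 0.54, SE 0.29, adjusted p = 0.314).

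Among the forms of miR-30a-3p, all 10 had a positive log2FC (49.3% over all sequences) and 3 were called higher (2.18% over all sequences). With 1 nt added it had 1.82, 1.02, 3.85, 2.14 and 3.01 CPM on PD12, and on PD20 a lowest value of 4.01, a median of 7.89 and a highest of 14.3 CPM. These groups did not overlap, although PD20 replicate 4 lay just above PD12 replicate 3 (log2FC 1.94, SE 0.51, adjusted p = 0.0497). With 1 nt lost it had 99.95 ± 52.1 vs. 281 ± 142 CPM (log2FC 1.49, SE 0.40, adjusted p = 0.0497), and PD12 replicate 3 at 185 CPM overlapped with PD20 replicate 4 at 149 CPM. The form that had lost 1 nt at both ends, with the moved seed, had 6.47 ± 4.04 vs. 25.3 ± 14.8 CPM (log2FC 1.98, SE 0.46, adjusted p = 0.0417) and overlapped too. Canonical miR-30a-3p, at 323 vs. 508 CPM, was not called (log2FC 0.66, SE 0.53, adjusted p = 0.508).

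miR-30a-5p with 4 nt lost had 4.43 ± 2.19 vs. 17.9 ± 7.82 CPM (log2FC 2.01, SE 0.48, adjusted p = 0.0417), and PD20 replicate 2 at 8.11 CPM lay within the range of PD12. miR-30c-5p with 1 nt lost had 6.97, 7.16, 12.0, 16.4 and 4.82 CPM on PD12, and on PD20 a lowest value of 17.4, a median of 22.4 and a highest of 29.7 CPM. Its groups did not overlap (log2FC 1.30, SE 0.34, adjusted p = 0.0497). Canonical miR-30c-5p had 375 vs. 567 CPM (log2FC 0.60, SE 0.28, adjusted p = 0.232). All 5 calls of the family were lost without PD12 replicate 1, 2 or 5, PD16 replicate 3, or PD20 replicate 3 or 5.

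miR-148 and miR-152 are related miRNAs that share the seed CAGTGCA. miR-148b-3p with 1 nt lost had 282, 316, 223, 211 and 63.5 CPM on PD12, and on PD20 a lowest value of 437, a median of 592 and a highest of 2129 CPM. All PD20 libraries were above all PD12 libraries, and PD20 replicate 3 was far above the others (log2FC 2.02, SE 0.46, adjusted p = 0.0417). The form that had also lost 2 nt at the 5' end had 5.75, 5.79, 1.92, 4.27 and 0.903 CPM on PD12, and on PD20 a lowest value of 6.83, a median of 13.2 and a highest of 42.2 CPM. It did not overlap either and was again highest in PD20 replicate 3 (log2FC 2.11, SE 0.55, adjusted p = 0.0497). The canonical sequence, at 9074 vs. 14620.0 CPM, was not called (log2FC 0.69, SE 0.49, adjusted p = 0.465). Of the 26 sequences of miR-148 and miR-152, 2 were called higher (2.18% over all sequences) and the median log2FC was 0.21.

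miR-532-5p is made from an X-linked cluster with miR-362 and miR-500. Its form with 3 nt lost had 2.42, 1.02, 2.40, 0 and 1.204 CPM on PD12, and on PD20 a lowest value of 6.01, a median of 10.05 and a highest of 20.9 CPM. The groups did not overlap (log2FC 2.98, SE 0.61, adjusted p = 0.0311), and the call remained under 8 of 10 alternatives and in 11 of 16 fits without a library. The canonical form had 909.6 vs. 1010.4 CPM (log2FC 0.15, SE 0.34, adjusted p = 0.839), and of the 20 sequences of the cluster 1 was called higher (2.18% over all sequences).

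miR-10b lies in the HOXD cluster. Its form with 1 nt lost had 703, 536, 590.4, 631 and 691 CPM on PD12, and on PD20 a lowest value of 924, a median of 1405 and a highest of 2794 CPM. The PD12 libraries were close together and all PD20 libraries lay above them (log2FC 1.30, SE 0.31, adjusted p = 0.0417). Canonical miR-10b had 49257 vs. 40486 CPM (log2FC -0.28, SE 0.52, adjusted p = 0.800). let-7a with 2 nt lost had 134, 131, 115, 187 and 63.8 CPM on PD12, and on PD20 a lowest value of 187, a median of 257 and a highest of 549 CPM. PD12 replicate 4 and PD20 replicate 6 nearly met, without overlap (log2FC 1.24, SE 0.33, adjusted p = 0.0497), and canonical let-7a had 9567 vs. 11762 CPM (log2FC 0.30, SE 0.27, adjusted p = 0.563).

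miR-23a and miR-23b are transcribed with miR-27 and miR-24. miR-23b with 2 nt lost had 9.09, 12.95, 8.17, 10.7 and 5.72 CPM on PD12, and on PD20 a lowest value of 19.1, a median of 23.7 and a highest of 33.5 CPM. The groups stayed apart (log2FC 1.39, SE 0.35, adjusted p = 0.0485). miR-23a with 1 nt lost had 17.4 ± 14.6 vs. 52.8 ± 21.9 CPM (log2FC 1.61, SE 0.44, adjusted p = 0.0497), and PD12 replicate 3, at 43.3 CPM, lay within PD20. Of the 32 sequences of these clusters 2 were called higher (2.18% over all sequences), and the median log2FC was 0.29. At an unadjusted p under 0.05, 8 were higher and 2 lower (11.2% and 9.39% over all sequences). Their most abundant sequence, miR-27b-3p, had 5843 ± 1728 vs. 3559.7 ± 1759 CPM (log2FC -0.71, SE 0.37, adjusted p = 0.281).

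miR-126-3p, known from endothelial cells, was higher with 2 nt lost, at 445 ± 219 vs. 1054 ± 372 CPM (log2FC 1.24, SE 0.34, adjusted p = 0.0497), while its arm was not called (log2FC 0.36, SE 0.25, adjusted p = 0.400). miR-101, a repressor of EZH2 and of the prostaglandin synthase PTGS2, was higher with 2 nt added, at 142 ± 44.4 vs. 386 ± 149 CPM (log2FC 1.44, SE 0.34, adjusted p = 0.0417). miR-146b, a brake on the TRAF6 branch of immune signalling, was higher with 3 nt added, at 103 ± 45.9 vs. 292 ± 136 CPM (log2FC 1.498, SE 0.40, adjusted p = 0.0497). Each of these overlapped between the groups.

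A 20 nt form of miR-381 from the imprinted DLK1-DIO3 cluster had 2.42, 2.39, 0.961, 2.49 and 0.903 CPM on PD12, and on PD20 a lowest value of 3.18, a median of 5.39 and a highest of 15.1 CPM. It did not overlap (log2FC 1.89, SE 0.51, adjusted p = 0.0497), whereas the 42 sequences of this cluster, with 18 of 47 listed names found, had this 1 call (2.86% in either direction over all sequences) and a median log2FC of -0.40. The sequence listed under ENSSSCG00000026388 had 3.06 ± 2.83 vs. 32.8 ± 45.2 CPM (log2FC 3.47, SE 0.88, adjusted p = 0.0485). PD20 replicate 6 held 123 CPM of it, and PD20 replicate 4, at 4.68 CPM, lay within the range of PD12. Its letters are those with which alanine tRNAs begin, by general knowledge and not by a match to a genome here.

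By the position of their 3' end, the called sequences were unevenly spread. Of the 19 higher sequences 15 could be aligned to a canonical form in the list, and 12 of these ended before it and 3 after it. Among all 615 aligned sequences 15 (2.44%) were called higher and 4 lower, and 67 were higher and 60 lower at an unadjusted p under 0.05. Of the 615, 272 had a shortened 3' end, and 12 (4.41%) of them were called higher and 1 lower, while of the 144 canonical sequences 0 were called higher and 2 lower. Among the canonical sequences 10 were higher and 23 lower at an unadjusted p under 0.05 in the F-test of edgeR, and among the shortened ones 40 and 17. The median log2FC was 0.16 for shortened, -0.16 for canonical, -0.09 for the 150 extended and -0.01 for the 49 sequences changed at the 5' end alone, against 0.02 over all aligned sequences. By position it was 0.08 at an end 4 nt short (17 sequences), 0.27 at 3 nt, 0.28 at 2 nt, 0.07 at 1 nt, -0.09 at the canonical end, -0.06 with 1 nt added, -0.35 with 2 nt, -0.20 with 3 nt (11 sequences), 0.21 with 4 nt (5 sequences) and 0.67 with 5 nt (2 sequences), and at 5 nt short it was 0.51 (5 sequences), so that the medians did not fall steadily along the 3' end. Within a miRNA arm, shortened forms had a higher median log2FC than forms with the full 3' end for 70 of 98 arms (median difference 0.28), and than extended forms for 43 of 61 (median difference 0.39). These are counts over sequences of the same libraries, which are not replicates, and carry no test.

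**Figure D3:**
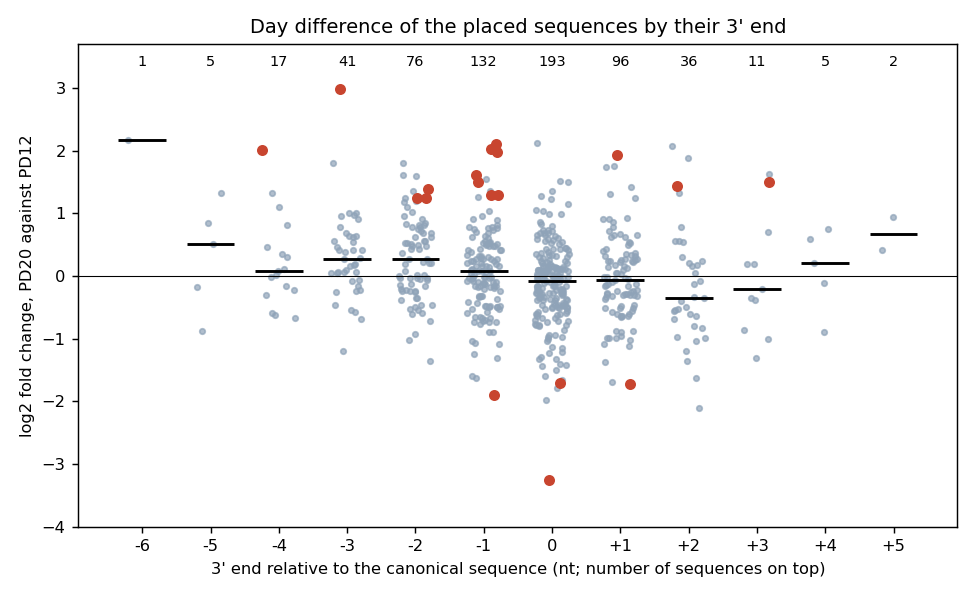
Log2 fold change, PD20 against PD12, of the 615 aligned sequences by the position of their 3' end relative to the canonical sequence (nt), with the number of sequences on top. Grey points are sequences, red points called ones and bars medians. The median is 0.27 at -3 nt, 0.28 at -2 nt, -0.09 at the canonical end and -0.35 at 2 nt added, and it is positive again at 4 and 5 nt added, where there are few sequences.

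With the library as the unit, the shares did not pass when weighted by reads. Shortened sequences held 9.16% ± 2.23 of the reads of aligned sequences on PD12 and 10.5% ± 3.48 on PD20 (exact two-sided permutation p = 0.519, adjusted p = 0.795 over 6 shares). PD20 replicate 4 held 16.7%, and without it the difference fell from 1.33 to 0.0833 percentage points. Canonical sequences held 53.1% ± 1.06 vs. 52.4% ± 3.08 (adjusted p = 0.795 by the same exact test), a difference of -0.712 percentage points that was -0.0132 without PD20 replicate 1 and -1.74 without PD20 replicate 6. With each of the 112 miRNA arms of more than 1 aligned sequence weighted equally, a weighting chosen after seeing the data, the shortened share was 31.3% ± 1.37 vs. 33.5% ± 1.52. Its exact permutation p was 0.0346 and its adjusted p over 5 measures 0.0938. With each of the 11 libraries left out in turn the difference stayed between 1.73 and 2.64 percentage points, and the adjusted p of the exact test was 0.0476 without PD12 replicate 3 and 0.0794 to 0.206 without any other library. With every detected sequence counted equally, whatever its reads, the shortened share was 44.2% ± 0.0530 vs. 44.4% ± 0.122 (exact permutation p = 0.00433, the smallest that 462 arrangements can give, adjusted p = 0.0216). Each library held reads of 856 to 872 of the 873 sequences, so that this share could vary only through the few rare sequences without a read, and nothing is read from it.

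Reads of 28 to 31 nt, longer than miRNAs, held 1.57% ± 0.228 of all reads on PD12 and 2.40% ± 0.880 on PD20 (exact permutation p = 0.0563, adjusted p = 0.338). PD20 replicate 1 was the lowest of all 11 libraries at 1.12%, and without it the difference was 1.09 percentage points (adjusted p = 0.0476 by the exact test). The 10 most abundant sequences, forms of miR-21, miR-143-3p, let-7f, let-7g, miR-10a-5p, miR-10b and miR-148a-3p, held no call in the F-test of edgeR. None of them reached an unadjusted p of 0.05, and with 2.86% called and 20.6% at that p over all sequences nothing is read from these zeros. The log2FC ranged from -0.61 to 1.04.

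Marker lists of cell types were read against the labelled tissue. The epithelial miR-200 family was present in every library, between 7555 and 14067 CPM, as were miR-143 and miR-145, which are abundant in smooth muscle and stroma. miR-143 and miR-145 had 31 sequences, none called (2.86% over all sequences), and a median log2FC of 0.75. At an unadjusted p under 0.05, 6 were higher (11.2% over all sequences). Their most abundant sequence, canonical miR-143-3p, had 49475 ± 12051 vs. 101688 ± 133690.0 CPM (log2FC 1.04, SE 0.53, adjusted p = 0.282). PD20 replicate 1 stood far above all others here, since the remaining PD20 libraries summed to no more than 140201 CPM and PD12 to 81029 to 132832 CPM. miR-126 of the endothelium summed to 3236 vs. 3940.2 CPM.

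Striated muscle miRNAs were listed as 5 names, of which miR-1, miR-206 and miR-499 were found and miR-133a and miR-133b had no sequence among the 873. None of their 8 sequences was called (2.86% over all sequences), and the median log2FC was 1.64 against -0.01 over all. At an unadjusted p under 0.05, 5 were higher and 1 lower (11.2% and 9.39% over all sequences). They summed to 1138, 2459, 8576, 2178 and 1422 CPM on PD12, and on PD20 to between 1409.7 and 43686 CPM with a median of 3799. PD20 replicate 1 was far above the rest, followed by PD12 replicate 3 and PD20 replicate 3, and the most abundant sequence, miR-1 with 1 nt added, had 2866 ± 3064 vs. 9533 ± 14689.6 CPM (log2FC 1.73, SE 0.78, adjusted p = 0.224). The part of muscle tissue in the differences between these libraries was not tested.

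Blood cell miRNAs were present on both days. The erythrocyte list of miR-451, miR-144 and miR-486 summed to 1189 ± 395 vs. 2224 ± 1216 CPM, with none of 16 sequences called (2.86% over all sequences) and 1 at an unadjusted p under 0.05 (20.6% over all sequences), miR-451 with 1 nt lost at 566 ± 185 vs. 1356 ± 778 CPM (log2FC 1.26, SE 0.54, adjusted p = 0.199). Of the leukocyte list miR-142, miR-150, miR-155 and miR-342 were found and miR-223 had no sequence among the 873. Its 13 sequences had no call (2.86% over all sequences). At an unadjusted p under 0.05, 6 were higher and 3 lower (11.2% and 9.39% over all sequences). The 3 lower ones belonged to miR-342, whose most abundant form, with 1 nt lost, had 132 ± 87.3 vs. 44.0 ± 17.1 CPM (log2FC -1.59, SE 0.44, adjusted p = 0.0545). The 6 higher ones belonged to miR-142, miR-150 and miR-155.

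**Figure D4:**
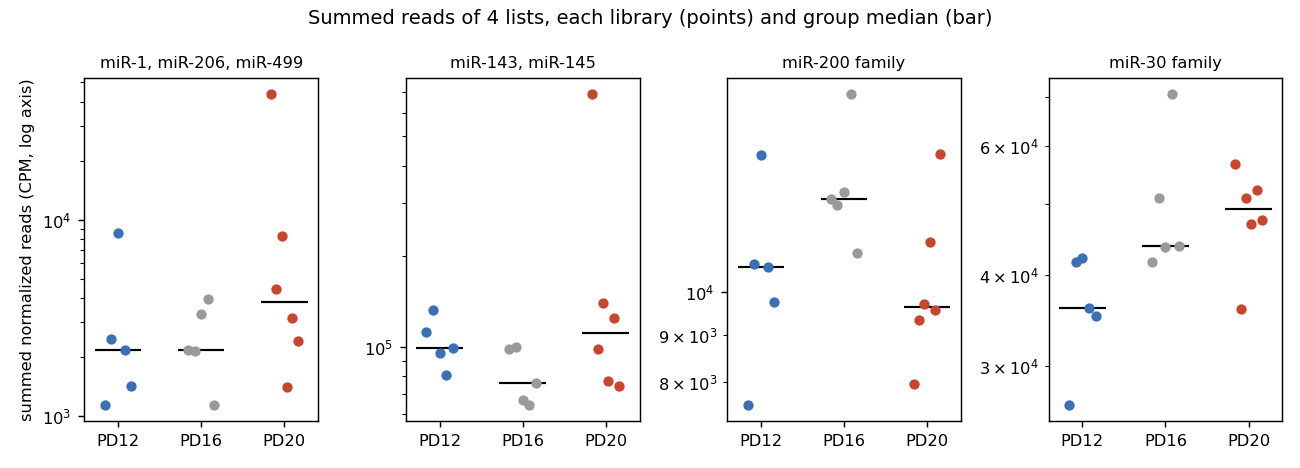
Summed normalized reads (CPM, log axis) of 4 lists in each library of PD12 (blue), PD16 (grey) and PD20 (red), with the group median as a bar. In PD20 replicate 1 the muscle miRNAs reach 43686 CPM and miR-143 with miR-145 691401 CPM, while the miR-200 family lies in the same range on both days and the miR-30 family is higher in 5 of 6 PD20 libraries than in any PD12 library.

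Other families had medians under 0 without a call by the F-test. Over all sequences 2.86% were called, the median was -0.01, and 11.2% were higher and 9.39% lower at an unadjusted p under 0.05. The 9 sequences of miR-320 had a median log2FC of -0.77 and 6 were lower at an unadjusted p under 0.05, with the list summing to 994 ± 238 vs. 589 ± 216 CPM. The 16 sequences of the X-linked cluster of miR-424, miR-450 and miR-542 had a median log2FC of -0.54, with 5 lower at an unadjusted p under 0.05 and none above 0. miR-199 and miR-214, made in mesenchymal cells, had 23 sequences with a median log2FC of -0.26, 1 of them lower at an unadjusted p under 0.05, and summed to 4542 ± 809 vs. 3259.8 ± 524 CPM. miR-9 and miR-7 had 12 sequences with a median log2FC of -0.44, 1 higher and 2 lower at an unadjusted p under 0.05. The X-linked list's most abundant sequence, miR-450b-5p with 1 nt lost, had 641 ± 179.6 vs. 574 ± 242 CPM (log2FC -0.16, SE 0.32, adjusted p = 0.820), and canonical miR-7 had 3231 ± 1171 vs. 2021 ± 289.9 CPM (log2FC -0.68, SE 0.31, adjusted p = 0.224). The hypoxia-induced miR-210 had a single sequence, at 3.06 ± 1.18 vs. 2.17 ± 0.517 CPM (log2FC -0.50, SE 0.45, adjusted p = 0.559). miR-21, with 18 sequences and a median log2FC of 0.07, summed to 399852 ± 222072 vs. 423556 ± 124052 CPM and had no call either.

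Of the remaining lists, 5 small ones held no call, which at 2.86% over all sequences is near the background. The sensory and epithelial miR-183 cluster had 20 sequences with a median log2FC of 0.13, and miR-182 had 2652 ± 1124 vs. 3114 ± 1681 CPM (log2FC 0.23, SE 0.40, adjusted p = 0.782). The p53-responsive miR-34 family with the ciliary miR-449 family had 14 with a median of -0.34, and canonical miR-34c had 5446 ± 2996 vs. 3481 ± 1162 CPM (log2FC -0.65, SE 0.37, adjusted p = 0.343). miR-375, known from endocrine and secretory cells, had 5 with a median of -0.06, the miR-192 family 3 with a median of 0.15 and miR-31 4 with a median of 0.28. By unadjusted p under 0.05 in the F-test, these 5 lists had 3, 0, 1, 1 and 1 sequences higher and 0, 2, 0, 0 and 0 lower (11.2% and 9.39% over all sequences).

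The 31 sequences of the proliferation-linked miR-17 to miR-92 clusters and their relatives had a median log2FC of 0.03 and no call, with 3 higher and 4 lower at an unadjusted p under 0.05, and miR-25 had 701 ± 193 vs. 865 ± 226 CPM (log2FC 0.30, SE 0.29, adjusted p = 0.592). miR-15 and miR-16 (14 sequences, median 0.02), miR-26 with miR-103 (14, 0.26), miR-140 (17, 0.15), miR-151 with miR-28 (32, 0.09), miR-221 with miR-222 (11, 0.35) and miR-99 with miR-100 and miR-125 (43, -0.03) had no call either, nor had miR-132 with miR-212 (3, 0.29). The medians were lower for the miR-181 family (11, -0.41) and for miR-191 with miR-425 (10, -0.38), again without a call. Across these 9 lists, between 0 and 3 sequences were higher and between 0 and 3 lower at an unadjusted p under 0.05 in the F-test of edgeR, with the same shares over all sequences. Lists with a called sequence named above were miR-101 (12 sequences, median 0.60), miR-146 (10, 0.36), miR-126 (17, 0.07) and miR-10 with miR-196 (37, -0.28), each with 1 call, against 2.86% of all sequences. Of miR-101, the most abundant form, with 1 nt added, had 1382 ± 514 vs. 3256 ± 1568 CPM (log2FC 1.24, SE 0.37, adjusted p = 0.0738). Over all 39 lists, the most abundant sequence was called for 2, by miR-302 and by miR-146b with 3 nt added. For the other 37 lists its log2FC ranged from -1.59, for miR-342 with 1 nt lost, to 1.73, for miR-1 with 1 nt added, and the lowest adjusted p was 0.0545.

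All 12 sequences on the list of RT-PCR assays were found in the counts. Of these miR-205 was lower, and miR-302, miR-23a with 1 nt lost and miR-30a-3p with 1 nt lost were higher by the values above. Canonical miR-1 had 82.0 ± 30.5 vs. 356 ± 637 CPM, with 1655 CPM in PD20 replicate 1 and a median of 98.5 on PD20, and was not called (log2FC 2.12, SE 0.75, adjusted p = 0.124). Canonical miR-203, miR-23b, miR-191, miR-148a-3p and miR-199b-5p, miR-191 with 1 nt lost and the let-7d sequence had log2FC between -0.79 and 0.16 and were not called.

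The day difference was set against that of the estrous cycle in a fit of all 30 libraries. That fit called 21 sequences (2.41%) between PD12 and PD20, with 12 (1.37%) higher on the later day and 9 (1.03%) lower, and 20 (2.29%) between CD12 and CD20, with 13 (1.49%) higher and 7 (0.802%) lower. An unadjusted p under 0.05 was reached by 167 (19.1%) in pregnancy and 159 (18.2%) in the cycle. The change in pregnancy differed from that in the cycle for 1 sequence of 873 (0.115%), canonical miR-205, with 143 (16.4%) at an unadjusted p under 0.05. On CD12 it had 4, 2, 4 and 12 reads and on CD20 28, 29, 34, 13 and 46 reads, or 2.39 and 13.2 CPM in mean, and the log2FC in the cycle was 2.47 without a call (SE 0.73, adjusted p = 0.0708). The difference of the log2FC, pregnancy minus cycle, was -5.75 (SE 1.07, adjusted p = 0.00616), and as all PD20 libraries held 3 reads or fewer its size depends on the prior count. This call remained in each of the 20 fits that left out a library and under 4 of 5 alternatives, and was lost with a replicate block (adjusted p = 0.0570). Of the groups compared, canonical miR-205 met the study's read threshold for listing only on CD20, where it was high. The list thus favoured this difference.

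Of the 19 higher sequences 14 also had a positive log2FC on CD20 vs. CD12, against 54.3% of all sequences, with a median of 0.72 against 0.10 over all. miR-30c-5p with 1 nt lost was the one called in the cycle (7.92 vs. 25.3 CPM, log2FC 1.70, SE 0.46, adjusted p = 0.0441). Of the 6 lower sequences 5 had a negative log2FC in the cycle and 0 were called there. For miR-10b with 1 nt lost and miR-30a-3p with 1 nt lost at both ends the log2FC in the cycle was -0.65 (SE 0.35) and -0.87 (SE 0.52). The difference from pregnancy was 1.92 (SE 0.48) and 2.84 (SE 0.70), each with an adjusted p of 0.0577 that did not pass.

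Levels on PD16 are given beside those of the other days as a description. On PD12, PD16 and PD20, miR-92b-3p had 108, 77.7 and 33.1 CPM, and miR-205 had 4.20, 2.21 and 0.463 CPM. The 22 nt form of miR-29a had 5.61, 15.4 and 20.3 CPM and miR-532-5p with 3 nt lost 1.41, 9.17 and 11.4 CPM. miR-10b with 1 nt lost had 630.4, 558 and 1549 CPM, miR-101 with 2 nt added 142, 160.4 and 386 CPM, and miR-146b with 3 nt added 103, 49.2 and 292 CPM, for which PD16 was near or below PD12.

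The same test was run on all 22398 distinct sequences that had 10 or more reads over the pregnancy libraries, whether annotated or not. It called 31 (0.138%), of which 17 (0.0759%) were higher and 14 (0.0625%) lower, and the 22 nt form of miR-302 was the 1 annotated sequence among them. Of the higher ones 11 began with the letters of the 5' part of glycine tRNAs, a name given by general knowledge and not checked against a reference here. By their first 18 bases 10 of these fell into 3 variants and 1 into none. The variants are given as their 28 nt forms with the positions that differ between variants in capitals.
glycine tRNA variant 1: gcatTggtggttcaGtggtagaattctc
glycine tRNA variant 2: gcatGggtggttcaGtggtagaattctc
glycine tRNA variant 3: gcatTggtggttcaAtggtagaattctc
The 28 nt form of variant 1 had 58.8 ± 5.25 vs. 249 ± 96.8 CPM (log2FC 2.08, SE 0.43, adjusted p = 0.0295) and that of variant 2 3.36 ± 0.822 vs. 48.0 ± 29.2 CPM (log2FC 3.82, SE 0.67, adjusted p = 0.00748), here scaled to all reads and not to the annotated ones. Variant 3 had no read of this form on PD12 and 9.11 ± 10.3 CPM on PD20 (adjusted p = 0.00432). Summed over all forms, variant 1 had 2270.1 ± 1000.2 vs. 5377 ± 3700.5 CPM, variant 2 214 ± 210.0 vs. 1321 ± 933 CPM and variant 3 4.93 ± 2.86 vs. 169.6 ± 274 CPM. In the PD12 libraries these sums ranged from 1223 to 3655, 107 to 588 and 0.252 to 8.09 CPM for variants 1, 2 and 3, and on PD20 from 1842 to 11733, 457 to 2808 and 22.5 to 726 CPM. The sums of variants 1 and 2 overlapped between the days, and those of variant 3 did not. The overlap of variant 2 came from PD12 replicate 4, which held 588 CPM, and without it the PD12 mean was 120.4 ± 23.8 CPM (n = 4, up to 156 CPM). PD20 replicate 6 was highest for each variant, and it set the mean of variant 3, which without it was 58.3 ± 34.5 CPM (n = 5, up to 102 CPM). The 28 nt form of variant 3 had 5.39 ± 5.26 CPM without this library. Both steps were added after seeing the data.

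**Figure D5:**
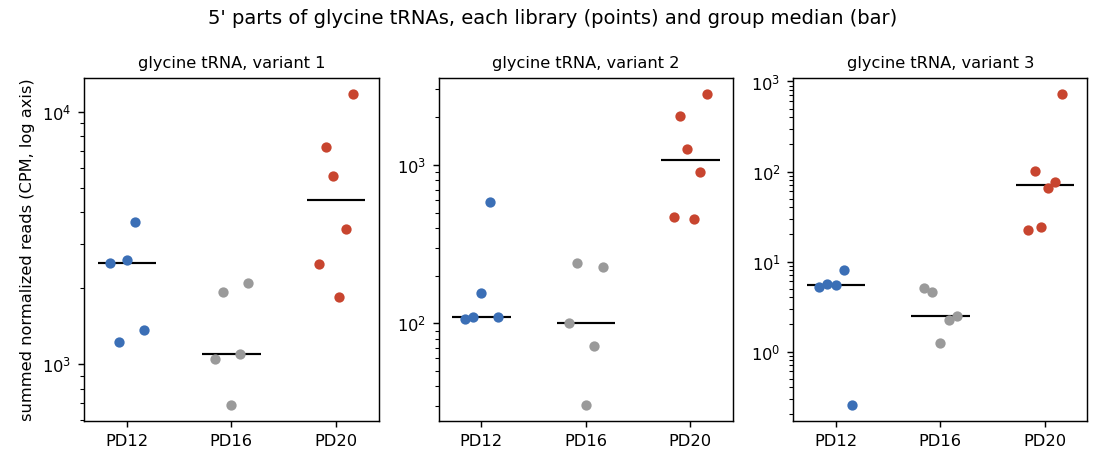
Summed normalized reads (CPM, log axis) of the 5' parts of glycine tRNA, variants 1, 2 and 3, in each library of PD12 (blue), PD16 (grey) and PD20 (red), with the group median as a bar. For variant 3 the PD20 libraries lie between 22.5 and 726 CPM and the PD12 libraries reach 8.09 CPM.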

How the data were processed

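Each deposited file held the counts of the distinct small RNA sequences of a library, which the authors made by joining runs, filtering on base quality, clipping adapters, discarding very short reads and collapsing identical reads, with no normalization. Counts were taken for the 873 sequences of the study's list by exact match, so no genome was used. PD20 (n = 6) and PD12 (n = 5), called biological replicates in the labels, were compared as a single contrast in a fit that also held PD16 (n = 5), by the quasi-likelihood F-test of edgeR 4.0.16 (R 4.3.3) with TMM factors, a prior count of 0.125 and Benjamini-Hochberg adjustment over all tested sequences, arms or seeds. p-values measure only the spread between these libraries. DESeq2 1.42.0 and other settings were alternatives. Shares were compared by exact permutation in SciPy 1.17.1 (Python 3.11.15, pandas 2.3.3, NumPy 2.4.6, Matplotlib 3.10.9). Scripts were tested on simulated data. Named were all called sequences, arms and seeds, those for RT-PCR, the 10 most abundant, and the most abundant sequence of each of 39 lists, which apart from those printed are given as a range. The members and lists were chosen with earlier results of these data known.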

Additional observations from a re-analysis of the deposited data

Results flagged for a closer look

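Canonical miR-205 stood out because its day difference in pregnancy differed from that in the cycle by -5.75 on the log2 scale (SE 1.07, adjusted p = 0.00616 in edgeR's F-test), while the day difference in the cycle alone was not called (log2FC 2.47, SE 0.73, adjusted p = 0.0708). No PD20 library held more than 3 reads of it, so the size of the difference depends on the prior count. It met the study's read threshold for listing on CD20 and not on PD12, PD20 or CD12, so the list favoured this difference.

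Some values came from a library far from the rest of its group, which applied to 26 of 161 groups examined. The critical value used marks about 1 in 20 groups by chance, but these groups share libraries and sequences, so the 26 were not tested against that rate. PD20 replicate 4 was the outlying library in 7, PD12 replicate 3 and PD20 replicate 1 in 6 each, PD12 replicate 1 and PD20 replicate 3 in 2 each, and PD12 replicate 4, PD20 replicate 2 and PD20 replicate 6 in 1 each.

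In PD20 replicate 4 these were the 22 nt form of miR-29a (39.4 CPM), the arm of miR-29a (143 CPM), the miR-29 list (135 CPM), canonical miR-191 (233 CPM), miR-191 with miR-425 (849 CPM), miR-99 with miR-100 and miR-125 (65165 CPM) and the share of reads with a changed 5' end (4.29%). In PD12 replicate 3 they were miR-23a with 1 nt lost (43.3 CPM), miR-30a-3p with 1 nt lost at both ends (13.5 CPM), canonical miR-23b (187 CPM), the muscle list (8576 CPM), the DLK1-DIO3 cluster (1893 CPM) and miR-132 with miR-212 (26.4 CPM). In PD20 replicate 1 they were canonical miR-1 (1655 CPM), the muscle list (43686 CPM), miR-143 with miR-145 (691401 CPM), the cluster of miR-424, miR-450 and miR-542 (1708 CPM), the miR-23, miR-27 and miR-24 clusters (11373 CPM) and the list of miR-320 and miR-484 (1010.0 CPM).

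Both called forms of miR-148b-3p were highest in PD20 replicate 3, that with 1 nt lost at 2129 CPM and that also shortened at the 5' end at 42.2 CPM. miR-205 was highest in PD12 replicate 1 (9.995 CPM), where the miR-23, miR-27 and miR-24 clusters were lowest (5499.8 CPM). The remaining outlying values were the sequence under ENSSSCG00000026388 in PD20 replicate 6 (123 CPM), miR-101 in PD12 replicate 4 (3207 CPM, the lowest of its group) and miR-132 with miR-212 in PD20 replicate 2 (20.3 CPM).

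Outside the annotated list, the 5' parts of glycine tRNA had PD20 medians of 4485, 1083 and 71.1 CPM for variants 1, 2 and 3. A family of 12 sequences of 18 to 21 nt, whose name is not known here, made up 12 of the 14 lower calls among all sequences. It summed to 2597, 484, 95.0, 16254 and 1.51 CPM on PD12 (median 484) and to at most 43.7 CPM on PD20 and 23.1 CPM on PD16. The PD12 libraries thus spread over 4 orders of magnitude.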

How the results depend on the processing

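The direction of the 25 called sequences held in every alternative run. Counted over pairs of a called sequence and another setting, the call remained in 137 of 267. Over pairs of a called sequence and a left-out library it remained in 134 of 400. The number called was 47 by the likelihood ratio test (31 higher, 16 lower), 55 by DESeq2 (32 and 23) and 4 with all deposited reads as library size (2 and 2), which shifted the median log2FC to -0.17. It was 16 at a mean of at least 10 CPM (13 and 3), 0 with PD12 and PD20 alone and 7 in a joint test with PD16 (6 of them among the 25). With a replicate block it was 8 (7 among the 25). With consecutive title numbers grouped into sets as a block it was 14 (all among the 25). Whether these sets match the sequencing pools is not known. With a library left out the number was 0 to 30. RLE factors gave 26 (23 among the 25), all 30 libraries 21 (16) and all 22398 sequences 31 (1).

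Of miRNA arms, 4 in the report, 17 were called by the likelihood ratio test, 16 by DESeq2, 0 at 10 CPM (33 at an unadjusted p under 0.05 in edgeR), 1 with PD12 and PD20 alone and 0 to 7 with a library left out. Of seeds, 1 in the report, the counts were 8, 13 and 0 (35 at an unadjusted p under 0.05 in edgeR), and 3 with all reads as library size, 5 with all 30 libraries, 3 with the title numbers as a block and 0 to 5 with a library left out. For the difference between pregnancy and cycle, 1 in the report, they were 16 by the likelihood ratio test, 24 by DESeq2, 4 with all reads as library size, 0 with the replicate block (114 at an unadjusted p under 0.05 in edgeR) and 1 to 8 with a library left out.

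With each distinct sequence counted once, the shortened share differed by 0.199 percentage points (exact permutation, adjusted p = 0.0216, on a measure that is nearly saturated) and the share with a changed 5' end by 0.0708, where reads gave -0.851. With a library left out, the shortened share by reads differed by 0.0833 (without PD20 replicate 4) to 2.20 points (without PD20 replicate 1), 1.33 with all, the canonical share by -1.74 (without PD20 replicate 6) to -0.0132 (without PD20 replicate 1), -0.712 with all, the share with a changed 5' end by -1.29 (without PD12 replicate 3) to -0.420 (without PD12 replicate 4), the annotated share differed by -1.18 to 0.123 points (-0.461 with all, positive without PD20 replicate 6), the extended share by -2.05 to 1.22 (-0.405 with all, and 0.251, 0.425 and 0.612 without PD12 replicate 3, PD12 replicate 5 and PD20 replicate 6), and the share of 28 to 31 nt by 0.562 to 1.09 (0.832 with all). Replicate numbers did not pair the libraries, as deviations of same-numbered PD12 and PD20 libraries correlated between -0.19 and 0.63 and 2 of 5 correlated best with their own number. Depth limited sequences under about 1.74 CPM, which is 3 reads in the shallowest library. Why these counts differ between settings was not tested.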
